A study of Mus musculus with 5 samples.

Results

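Hepatokines are proteins that the liver secretes and that act on other organs. The transcripts of 7 of them, Fgf21, Angptl4, Angptl6, Gdf15, Ahsg, Fetub and Lect2, were taken by symbol from the 24808 gene symbols of a bulk RNA-seq study of mouse liver, and all 7 passed the filter on low counts that left 13590 genes for testing. The livers came from C57BL/6 mice aged 16 weeks. In the CCl4+givinostat group (n = 2) the mice received carbon tetrachloride (CCl4), a solvent that hepatocytes convert into a toxic radical, together with givinostat, an inhibitor of histone deacetylases. In the CCl4 group (n = 3) the mice received carbon tetrachloride without givinostat. Every liver was thus exposed to CCl4, and no liver without CCl4 entered the comparison, so a level here cannot be read against a healthy liver. The sources used here do not give the sex of the mice or the dose and schedule of either agent.

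The 7 genes have different roles. Fgf21 encodes a fasting and stress hormone that signals through FGF receptors with the co-receptor beta-Klotho, and its liver transcription responds to the nuclear receptor PPARα and to the stress factor ATF4. Gdf15 encodes a stress hormone of the TGF-beta superfamily, read in the brainstem by GFRAL with RET, and it responds to ATF4 and p53. Angptl4 encodes an inhibitor of lipoprotein lipase that is induced by PPARα, glucocorticoids and hypoxia. Angptl6 encodes a related angiopoietin-like protein that counters weight gain in mice. Lect2 encodes a chemotactic factor and ligand of the receptors MET and TIE1, and it is a target of beta-catenin in mouse liver. Ahsg and Fetub encode fetuin-A and fetuin-B, abundant plasma proteins of the cystatin superfamily: fetuin-A binds calcium phosphate and inhibits the insulin receptor, and fetuin-B inhibits astacin-type proteases.

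The counts summed to 21430125 and 21773867 in the CCl4+givinostat libraries, and to between 18634801 and 21099040 in the CCl4 libraries. Values below are in CPM, counts scaled to a common library size after TMM normalization. Over the total counts, before TMM scaling, 3 counts correspond to 0.138 to 0.161 CPM. CCl4 replicate 1 stood apart from the other CCl4 libraries: on the first principal component, which held 38.0% of the variance, it lay at -33.9, against 19.5 and 35.0 for CCl4 replicates 2 and 3, with the CCl4+givinostat libraries at -6.47 and -14.1. The 13 hepatocyte markers tested summed to 128352 and 119380 CPM in CCl4+givinostat livers, against 120217, 128415 and 131676 CPM in CCl4 livers, with a median log2 fold change of 0.01 (0.20 without CCl4 replicate 1). Alb made up most of each sum, at 76653 and 72549 CPM in CCl4+givinostat livers, against 72100, 71061 and 78780 CPM in CCl4 livers. Of the 13, 8 were higher and 5 lower. An edgeR unadjusted p under 0.05 was found for 2 higher and 1 lower, beside 3.52% and 3.93% of all tested genes. In such bulk tissue, fewer cells of a type and less RNA per cell cannot be told apart.

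On the TPM scale, which corrects counts for exon length and library size, the 7 genes lay between rank 9 and rank 5327 of 24265 genes with a known length, and their order was the same in each of the 5 libraries. Ahsg was among the most abundant transcripts of the liver, at 10420 and 10269 TPM in CCl4+givinostat livers, against 10284, 13453 and 11894 TPM in CCl4 livers. That placed it between rank 9 and rank 11, where Alb, the gene of serum albumin, held rank 1. Fetub ranked between 118 and 167, Lect2 between 312 and 598, Angptl4 between 531 and 826, Fgf21 between 772 and 1519, Gdf15 between 1377 and 2514 and Angptl6 between 4468 and 5327. Some neighbours in this order were close. Lect2 stood at 249.8 and 207.9 TPM and Angptl4 at 236.3 and 202.4 TPM in CCl4+givinostat livers, where their ranges overlapped. In CCl4 livers Lect2 stood at 347.4, 423.3 and 327.6 TPM and Angptl4 at 164.1, 143.6 and 181.6 TPM, with no overlap. Fgf21 reached 162.1 TPM in CCl4 replicate 1, close to Angptl4 in that liver, but 83.3 and 70.3 TPM in CCl4 replicates 2 and 3. Ahsg alone made up between 86.2% and 88.5% of the summed TPM of the 7 genes.

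**Figure D1:**
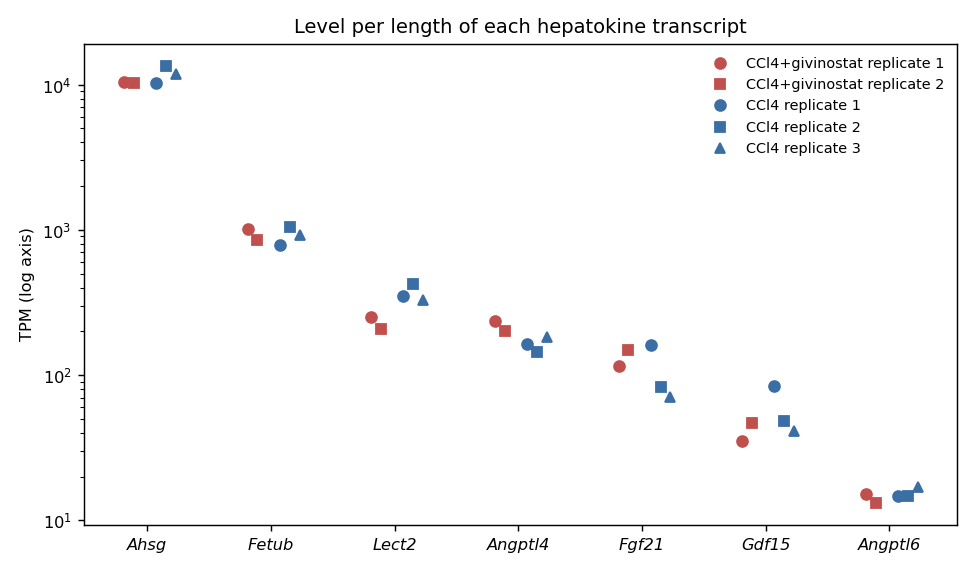
Level of each hepatokine transcript in TPM (log axis) in the 2 CCl4+givinostat and 3 CCl4 libraries, 1 point per library. The order from Ahsg to Angptl6 is the same in each library, and the points of Lect2 and Angptl4 approach each other in the CCl4+givinostat livers.

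Givinostat-treated livers held more Angptl4 and less Lect2 transcript than livers given CCl4 alone, with no overlap between the groups for either gene, while the other 5 hepatokines overlapped between the groups. None of these differences passed the test over all genes, and 2 of 7 without overlap is close to the 23.4% found among all tested genes. By the quasi-likelihood test of edgeR, adjusted across 13590 genes by the method of Benjamini and Hochberg, 0 of the 7 hepatokines had an adjusted p under 0.05, where 0.00736% of all tested genes did (1 gene). DESeq2 likewise called 0 of the 7, where it called 1.09% of all tested genes. At an unadjusted p under 0.05 there were 2 of 7, Angptl4 higher and Lect2 lower, beside 7.45% of all tested genes (3.52% higher and 3.93% lower). Groups that did not overlap in CPM were likewise found for 1 hepatokine higher and 1 lower, beside 11.7% of all tested genes in each direction and 23.4% in either. With 1 library left out, the hepatokines at an unadjusted p under 0.05 in either direction numbered 3 without CCl4 replicate 1 and 0 without CCl4 replicate 2, beside 15.9% and 4.89% of all genes tested. They numbered 3 without CCl4 replicate 3, 1 without CCl4+givinostat replicate 1 and 1 without CCl4+givinostat replicate 2, beside 7.19%, 3.12% and 4.94%. With 2 libraries against 3, an exact permutation test over the 10 possible assignments cannot give a two-sided p below 0.1. The fitted log2 fold change was above 0 for 3 of the 7 and below 0 for 4, with a median of -0.09, against a median of -0.02 over all tested genes, of which 46.2% lay above 0.

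**Figure D2:**
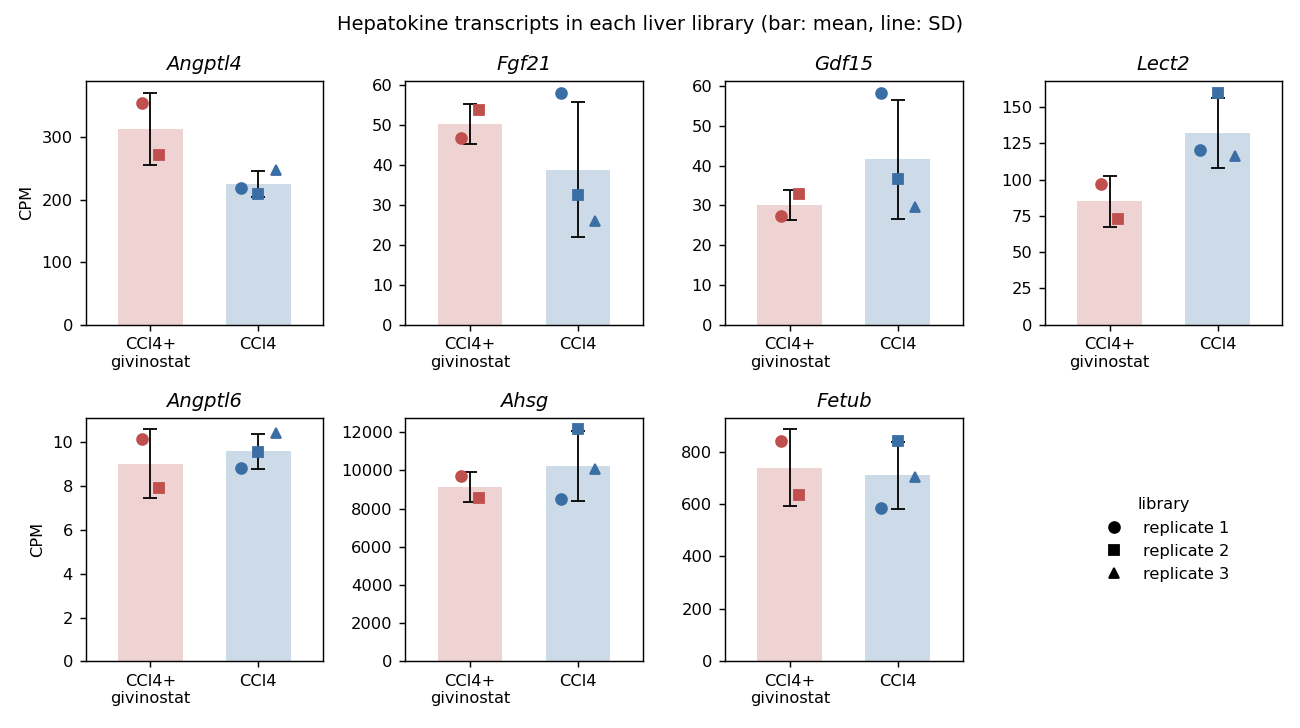
CPM of each hepatokine in the 2 CCl4+givinostat livers (left in each panel) and the 3 CCl4 livers (right), with bars at the mean, lines for the SD and 1 symbol per replicate number. The groups do not overlap for Angptl4 and Lect2, and CCl4 replicate 1 is the highest of the 5 libraries for Fgf21 and Gdf15.

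**Figure D3:**
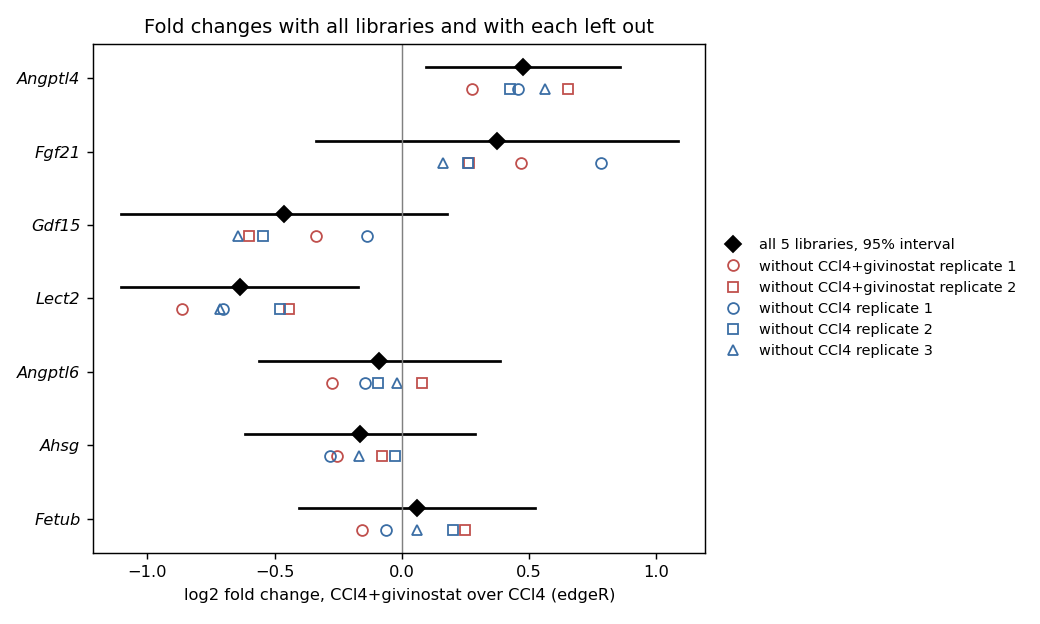
Log2 fold change of each hepatokine, CCl4+givinostat over CCl4, from edgeR. Diamonds with lines are the values with all 5 libraries and their 95% intervals, and open symbols are the values with 1 library left out. Only the intervals of Angptl4 and Lect2 lie on 1 side of 0, and leaving out CCl4 replicate 1 moves Fgf21 to 0.78.

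Angptl4, whose product inhibits lipoprotein lipase and so keeps circulating triglyceride from being taken up, lies on chromosome 17 between 33773750 and 33781830 (minus strand, GENCODE annotation of GRCm38). It stood at 354.6 and 272.4 CPM in CCl4+givinostat livers, against 218.8, 209.0 and 248.4 CPM in CCl4 livers. Both CCl4+givinostat livers were above every CCl4 liver, and the nearest values of the groups were 272.4 and 248.4 CPM. The means were 313.5 ± 58.1 CPM in CCl4+givinostat livers (SD, n = 2) and 225.4 ± 20.5 CPM in CCl4 livers (SD, n = 3). The fitted difference was 1.39-fold, a log2 fold change of 0.48 ± 0.17 (SE) with a 95% interval of 0.10 to 0.86, and the edgeR unadjusted p was 0.0202 with an adjusted p of 0.525 (DESeq2 adjusted p = 0.407). The exact two-sided permutation p was 0.1, the smallest possible. Leaving out CCl4+givinostat replicate 1, the highest liver, lowered the log2 fold change to 0.27 (edgeR unadjusted p = 0.220), a change of more than 1.5 times. Without CCl4 replicate 2 it was 0.42 (edgeR unadjusted p = 0.0704). Adipose tissue also expresses Angptl4. The adipocyte markers Adipoq, Plin1 and Lep were at or under 0.180 CPM in every library. Plin1 had counts in the CCl4+givinostat livers only, at 0.147 and 0.0898 CPM, and Adipoq in CCl4+givinostat replicate 2 only. Cfd was lower in CCl4+givinostat livers, at 0.0491 and 0.0898 CPM, against 0.0948, 0.144 and 0.104 CPM in CCl4 livers. The summed adipocyte markers, almost all Fabp4, lay at 12.4 and 19.1 CPM in CCl4+givinostat livers, against 12.2, 17.4 and 19.8 CPM in CCl4 livers. The part of adipose tissue in the Angptl4 result was not tested.

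Angptl6 lies on chromosome 9 between 20873808 and 20879727 (minus strand) and was the least abundant of the 7. It stood at 10.1 and 7.90 CPM in CCl4+givinostat livers, against 8.82, 9.53 and 10.4 CPM in CCl4 livers. The groups overlapped, the log2 fold change was -0.09 ± 0.21 (SE) with a 95% interval of -0.56 to 0.39, and the edgeR adjusted p was 0.977. Of its exonic bases, 16.75% overlap the opposite-strand gene A230050P20Rik. No source used here says whether the counting used strand, so its reads and those of that gene cannot be told apart there.

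Other angiopoietin-like genes were set beside Angptl4. Angptl8, an insulin-induced gene whose product takes part in the control of lipoprotein lipase, stood at 58.5 and 51.6 CPM in CCl4+givinostat livers, against 68.5, 312.1 and 149.6 CPM in CCl4 livers. Both CCl4+givinostat livers were below every CCl4 liver, but CCl4 livers differed widely among themselves, and the log2 fold change of -1.68 ± 0.53 (SE) had an edgeR adjusted p of 0.493. Angptl2, an inflammation-related member, stood at 10.02 and 8.48 CPM in CCl4+givinostat livers, against 7.77, 7.17 and 8.21 CPM in CCl4 livers. The groups did not overlap, and its log2 fold change was 0.26 ± 0.20 (SE). Angptl7 was scarce, at 0.295 and 0.673 CPM in CCl4+givinostat livers, against 3.79, 0.866 and 0.935 CPM in CCl4 livers. Its groups did not overlap either, with a log2 fold change of -1.93 ± 0.79 (SE) and an edgeR adjusted p of 0.643 (unadjusted p = 0.0403). Angptl1 lay under 0.5 CPM in each library and was not tested.

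The ratio of Angptl8 to Angptl4 in CPM, chosen after its values had been seen, was 0.165 and 0.189 in CCl4+givinostat livers, against 0.313, 1.49 and 0.602 in CCl4 livers, a difference of -1.89 on the log2 scale (exact permutation p = 0.2, two-sided). Corrected for length, Angptl8 stood at 159.5 and 156.9 TPM in CCl4+givinostat livers, below Angptl4 in both, and at 210.3, 877.6 and 447.8 TPM in CCl4 livers, above Angptl4 in all 3.

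**Figure D4:**
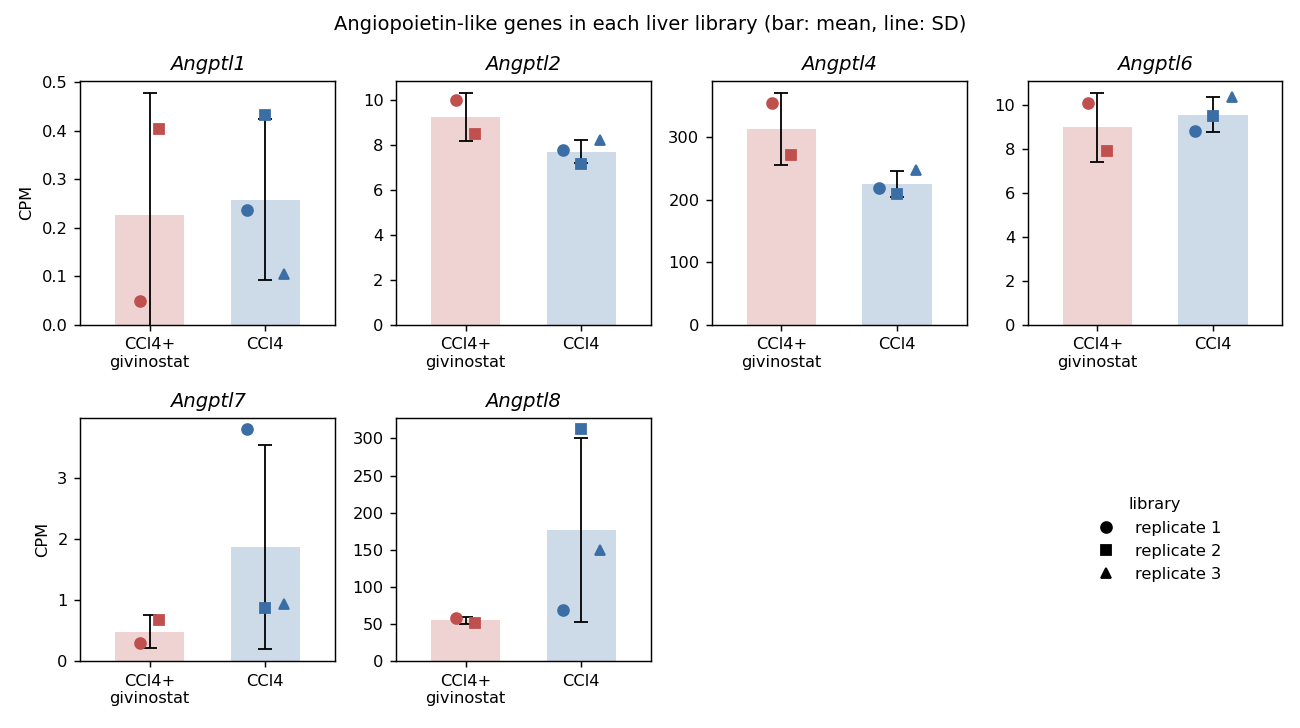
CPM of 6 angiopoietin-like genes in the 2 CCl4+givinostat livers (left in each panel) and the 3 CCl4 livers (right), with bars at the mean, lines for the SD and 1 symbol per replicate number. Angptl4 and Angptl2 are higher, and Angptl8 and Angptl7 lower, in both CCl4+givinostat livers than in every CCl4 liver. Angptl6 and Angptl1 overlap.

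Targets of the pathways that act on Angptl4 were read from lists chosen with earlier results of these data known. Their counts beside all tested genes are thus descriptions, not independent evidence. All 21 PPARα targets had a fitted log2 fold change above 0, with a median of 0.57 against -0.02 for all tested genes, and 15 of them were higher at an unadjusted p under 0.05, beside 3.52% of all tested genes. None passed the edgeR adjustment over all genes with all 5 libraries, treatment as the only term and the filter on low counts. With no such filter edgeR called 6, beside 23 of 17834 genes tested called higher. Without CCl4 replicate 1 it called 7, beside 119 of 13453. DESeq2 called 8 of the 21, beside 0.508% of all tested genes called higher. The number higher at an unadjusted p under 0.05 was 10 without CCl4 replicate 2, beside 315 of 13431 genes tested. It was 19 without CCl4 replicate 1, beside 1050 of 13453. The median of the list was 0.57 without CCl4+givinostat replicate 1 and 0.63 without CCl4+givinostat replicate 2. Cyp4a10, a fatty acid omega-hydroxylase, stood at 3091 and 3006 CPM in CCl4+givinostat livers, against 1339, 961 and 1284 CPM in CCl4 livers, a log2 fold change of 1.35 ± 0.18 (SE). Acot3 and Acaa1b, both peroxisomal enzymes of fatty acid breakdown, had log2 fold changes of 1.00 ± 0.15 and 1.04 ± 0.18 (SE), and that of Vnn1, a pantetheinase, was 1.23 ± 0.22 (SE). Cyp4a10, Acot3 and Acaa1b have close paralogs, so reads shared between copies make their values uncertain. The log2 fold change of Angptl4, 0.48, was thus below the median of that list. Ppara itself, the receptor, had a log2 fold change of 0.51 ± 0.22 (SE), with both CCl4+givinostat livers above every CCl4 liver.

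The glucocorticoid and hypoxia targets, by contrast, did not share a direction: 6 were higher and 8 lower of 14 tested, with a median of -0.18, and an unadjusted p under 0.05 was found for 4 higher and 1 lower. Bnip3, a hypoxia-induced mitophagy receptor, stood at 324.6 and 288.1 CPM in CCl4+givinostat livers, against 151.9, 142.6 and 164.7 CPM in CCl4 livers, which is 1.00 ± 0.14 (SE) on the log2 scale, with an adjusted p of 0.140 in edgeR and 4.44e-06 in DESeq2, which called 2 of the 14 higher. Fkbp5, a glucocorticoid-induced chaperone, and Pdk1, a kinase that restrains pyruvate oxidation, had log2 fold changes of 0.59 ± 0.14 and 0.70 ± 0.17 (SE). Sgk1, a glucocorticoid-induced kinase, had one of -0.93 ± 0.37 (SE). The median of the list was 0.02 without CCl4+givinostat replicate 1.

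Fgf21 was the hepatokine whose reading depended most on a single liver. The gene lies on chromosome 7 between 45613886 and 45615490 (minus strand). It stood at 46.7 and 53.8 CPM in CCl4+givinostat livers, against 58.1, 32.6 and 25.8 CPM in CCl4 livers. The CCl4+givinostat livers agreed closely, and CCl4 replicate 1 was above both of them while CCl4 replicates 2 and 3 were below both. With all 5 libraries the log2 fold change was 0.37 ± 0.31 (SE) with a 95% interval of -0.34 to 1.08, and the edgeR adjusted p was 0.880 (exact permutation p = 0.4, two-sided). Without CCl4 replicate 1 it was 0.78, with an edgeR adjusted p of 0.0405 in a fit that called 1.75% of all genes tested. Without CCl4 replicate 3 it was 0.16. The variation between livers of a group was 25.1% (edgeR's biological coefficient of variation), larger than that of 96.5% of the 2016 genes of similar level, whose median was 15.6%.

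The bases before the start of Fgf21 are shown because ATF4 and C/EBP factors read the composite motif TGATGNAA. The window is the 250 bases before the annotated start in RefSeq (GRCm38.p6, chr7:45615491-45615740, minus strand), written 5′ to 3′ with the match in capitals.
Fgf21 promoter: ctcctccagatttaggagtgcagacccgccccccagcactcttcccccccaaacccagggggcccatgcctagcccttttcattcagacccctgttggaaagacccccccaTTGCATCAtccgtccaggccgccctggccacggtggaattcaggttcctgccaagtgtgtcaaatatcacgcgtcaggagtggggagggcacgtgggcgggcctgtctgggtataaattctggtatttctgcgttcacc
The match, on the opposite strand, begins 139 bases before the start. The motif occurs in 3.452% of the 32851 mouse promoter windows of the same length, and a match is a description of the sequence, not a measured site.

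Gdf15 lies on chromosome 8 between 70629393 and 70632456 (minus strand). It stood at 27.4 and 32.9 CPM in CCl4+givinostat livers, against 58.3, 36.7 and 29.6 CPM in CCl4 livers. CCl4 replicate 1 was again the highest, and the groups overlapped with it and without it. The means were 30.1 ± 3.85 CPM in CCl4+givinostat livers (SD, n = 2) and 41.6 ± 14.96 CPM in CCl4 livers (SD, n = 3). The log2 fold change was -0.46 ± 0.28 (SE) with a 95% interval of -1.10 to 0.18, and the edgeR adjusted p was 0.826 (exact permutation p = 0.4, two-sided). Without CCl4 replicate 1 it was -0.14, and without CCl4 replicate 3 it was -0.64 (edgeR unadjusted p = 0.0277, adjusted p = 0.611). The biological coefficient of variation was 22.6%, larger than that of 93.1% of the 2212 genes of similar level.

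The window before the outermost annotated start of Gdf15 (chr8:70632457-70632706, minus strand, RefSeq, GRCm38.p6) is shown because it holds a direct repeat of the DR1 kind: half-sites AGGNCA on 1 strand with any 1 base between them, a form read by HNF4A and by PPARα with RXR. The match is in capitals.
Gdf15 promoter: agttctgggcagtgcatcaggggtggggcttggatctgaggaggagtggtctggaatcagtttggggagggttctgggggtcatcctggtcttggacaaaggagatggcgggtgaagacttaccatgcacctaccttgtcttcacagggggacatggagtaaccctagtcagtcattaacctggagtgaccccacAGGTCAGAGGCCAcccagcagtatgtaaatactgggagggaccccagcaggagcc
The match begins 55 bases before the start, and DR1 occurs in 0.3379% of mouse promoter windows. No match to TGATGNAA was found in this window or in the window before the other annotated start.

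The 2 stress hormones thus shared 1 high liver, CCl4 replicate 1, but not a direction. Among CCl4 livers the ratio of the highest to the lowest was 1.17 for Fgf21 and 0.98 for Gdf15 on the log2 scale, whereas for the other 5 hepatokines it lay between 0.24 and 0.53. The targets of ATF4 and the integrated stress response, 14 higher and 7 lower of 21, had a median log2 fold change of 0.26, with an unadjusted p under 0.05 for 4 higher and 2 lower. Slc7a11, the cystine transporter, stood at 24.6 and 22.2 CPM in CCl4+givinostat livers, against 14.8, 6.54 and 5.82 CPM in CCl4 livers. Trib3, a pseudokinase that restrains ATF4, had a log2 fold change of 0.80 ± 0.27 (SE), Ddit4, an inhibitor of mTORC1, one of -0.87 ± 0.18 (SE), and Cebpb, a transcription factor, one of -0.38 ± 0.15 (SE). Atf4 itself stood at 143.8 and 162.5 CPM in CCl4+givinostat livers, against 169.4, 145.0 and 143.3 CPM in CCl4 livers. Without CCl4 replicate 1, 9 targets higher and 1 lower had an unadjusted p under 0.05, where 15.9% of all genes tested were in either direction. Without CCl4 replicate 2 the median of the list was 0.14.

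The summed targets of p53 were highest in the CCl4 liver with the most Gdf15. The 13 transcripts summed to 615.8 and 611.9 CPM in CCl4+givinostat livers, against 944.4, 514.5 and 644.0 CPM in CCl4 livers, and whether this bears on Gdf15 was not tested. Most of the sum in CCl4 replicate 1 came from Trp53inp1, at 307.9 CPM, and Cdkn1a, at 249.95 CPM, whereas Bax and Plk2 were highest in CCl4 replicate 3 and Sesn1 was lowest in CCl4 replicate 1. With all libraries 4 were higher and 9 lower, with a median log2 fold change of -0.21, and without CCl4 replicate 1 the median was 0.03. Without CCl4 replicate 2 it was -0.39, without CCl4+givinostat replicate 1 it was -0.37 and without CCl4+givinostat replicate 2 it was -0.09. Bax, a pore-forming inducer of apoptosis, stood at 52.9 and 50.1 CPM in CCl4+givinostat livers, against 77.6, 65.9 and 82.6 CPM in CCl4 livers. Bbc3, which encodes the apoptosis inducer PUMA, had a log2 fold change of 0.58 ± 0.18 (SE), and Plk2, a kinase, had one of -0.58 ± 0.20 (SE).

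The exocrine pancreas and macrophages are other sources of these 2 hormones. Of 11 acinar pancreas markers, 7 had no count in any library, and the list summed to 9.43 and 5.84 CPM in CCl4+givinostat livers, against 5.21, 6.93 and 7.27 CPM in CCl4 livers, mostly Cela1. The 11 macrophage markers summed to 564.2 and 672.9 CPM in CCl4+givinostat livers, against 491.6, 964.5 and 738.6 CPM in CCl4 livers. Of these 10 were lower and 1 higher, with a median log2 fold change of -0.23, and 2 were lower at an unadjusted p under 0.05, Adgre1 and Timd4 (7 without CCl4 replicate 1). Without CCl4 replicate 2, 6 were higher and 5 lower, with a median of 0.02 and 0 at an unadjusted p under 0.05. The macrophage marker sum was lowest in CCl4 replicate 1, the liver with the most Fgf21 and Gdf15. Not every marker was lowest there: Adgre1, Marco and Itgam were lower in CCl4+givinostat replicate 1. The part of these markers in either result was not tested. The paralogs in the same families gave no common direction: of 5 tested, 3 were higher and 2 lower, none at an unadjusted p under 0.05. Fgf15, the intestinal FGF, had no count in any library.

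Lect2 lies on chromosome 13 between 56542464 and 56548502 (minus strand). It stood at 97.3 and 72.6 CPM in CCl4+givinostat livers, against 120.2, 159.9 and 116.3 CPM in CCl4 livers. Both CCl4+givinostat livers were below every CCl4 liver, and the nearest values of the groups were 97.3 and 116.3 CPM. The means were 85.0 ± 17.4 CPM in CCl4+givinostat livers (SD, n = 2) and 132.1 ± 24.2 CPM in CCl4 livers (SD, n = 3). The fitted level in CCl4+givinostat livers was 0.643 times that in CCl4 livers, a log2 fold change of -0.64 ± 0.20 (SE) with a 95% interval of -1.10 to -0.17. The edgeR unadjusted p was 0.0133, which placed Lect2 362nd of 13590 genes, with an adjusted p of 0.493, and DESeq2 gave an adjusted p of 0.257. With single libraries left out the log2 fold change ran between -0.86 and -0.44, so its sign did not rest on 1 liver. The edgeR unadjusted p was 0.127 without CCl4+givinostat replicate 2, and it lay at the threshold of 0.05 without CCl4 replicate 2.

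The window before Lect2 (chr13:56548539-56548788, minus strand, RefSeq, GRCm38.p6) is shown because the gene is a beta-catenin target, and the core of the TCF site, CTTTGAT on the opposite strand, is in capitals.
Lect2 promoter: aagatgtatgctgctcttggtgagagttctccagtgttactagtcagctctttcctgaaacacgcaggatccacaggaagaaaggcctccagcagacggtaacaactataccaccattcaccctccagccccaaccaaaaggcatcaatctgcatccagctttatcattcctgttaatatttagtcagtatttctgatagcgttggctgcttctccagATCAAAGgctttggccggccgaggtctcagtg
The match begins 32 bases before the start, and CTTTGAT occurs in 3.205% of mouse promoter windows.

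The other pericentral targets of beta-catenin did not share the direction of Lect2. Of 14 tested besides Lect2, 9 were higher and 5 lower, with a median log2 fold change of 0.23, with an unadjusted p under 0.05 for 1 higher and 1 lower. The median of the list was -0.02 without CCl4 replicate 3 and -0.09 without CCl4+givinostat replicate 1, against 0.54 without CCl4 replicate 2 and 0.44 without CCl4+givinostat replicate 2. Cyp2e1, the cytochrome that activates CCl4, stood at 3040 and 1639 CPM in CCl4+givinostat livers, against 859, 1038 and 984 CPM in CCl4 livers. Cyp1a2, another pericentral cytochrome, was lower in both CCl4+givinostat livers, at 184.1 and 132.4 CPM, against 431.5, 458.5 and 197.8 CPM in CCl4 livers. Axin2, a feedback inhibitor of the pathway, had a log2 fold change of 0.48 ± 0.24 (SE), and Tbx3, a transcription factor, one of 0.45 ± 0.27 (SE). Mesothelial markers, a sign of liver surface tissue, were also lower in CCl4+givinostat livers. The 11 found summed to 5.40 and 3.68 CPM in CCl4+givinostat livers, against 24.2, 11.9 and 25.7 CPM in CCl4 livers. Among CCl4 livers the sum was lowest in replicate 2, where Lect2 was highest. Of the 10 tested, 10 were lower, 8 of them at an unadjusted p under 0.05, beside 3.93% of all tested genes. After adjustment over all genes edgeR called 0 of the 10 with all 5 libraries, treatment as the only term and the filter on low counts. With no such filter it called 3, and without CCl4 replicate 1 it also called 3. DESeq2 called 6 lower, beside 0.581% of all tested genes. Msln, which encodes mesothelin, was at 0 and 0.0449 CPM in CCl4+givinostat livers, against 3.41, 1.15 and 2.81 CPM in CCl4 livers. Their part in the Lect2 result was not tested.

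The genes whose profile over the 5 libraries lay nearest to Lect2 were Arhgap26, Vcpkmt and Acsm1, at Euclidean distances of 0.0820, 0.0984 and 0.107 between centred log2 CPM. Acsm1, a mitochondrial medium-chain acyl-CoA synthetase, stood at 144.4 and 101.9 CPM in CCl4+givinostat livers, against 163.4, 236.1 and 163.7 CPM in CCl4 livers. Nearest to Angptl4 were Cox6b1, a subunit of cytochrome c oxidase, Vsig10 and Syce2, at distances of 0.0844, 0.0908 and 0.101. Cox6b1 stood at 237.5 and 192.9 CPM in CCl4+givinostat livers, against 149.2, 147.5 and 178.6 CPM in CCl4 livers. With 5 libraries these are descriptions of likeness only.

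**Figure D5:**
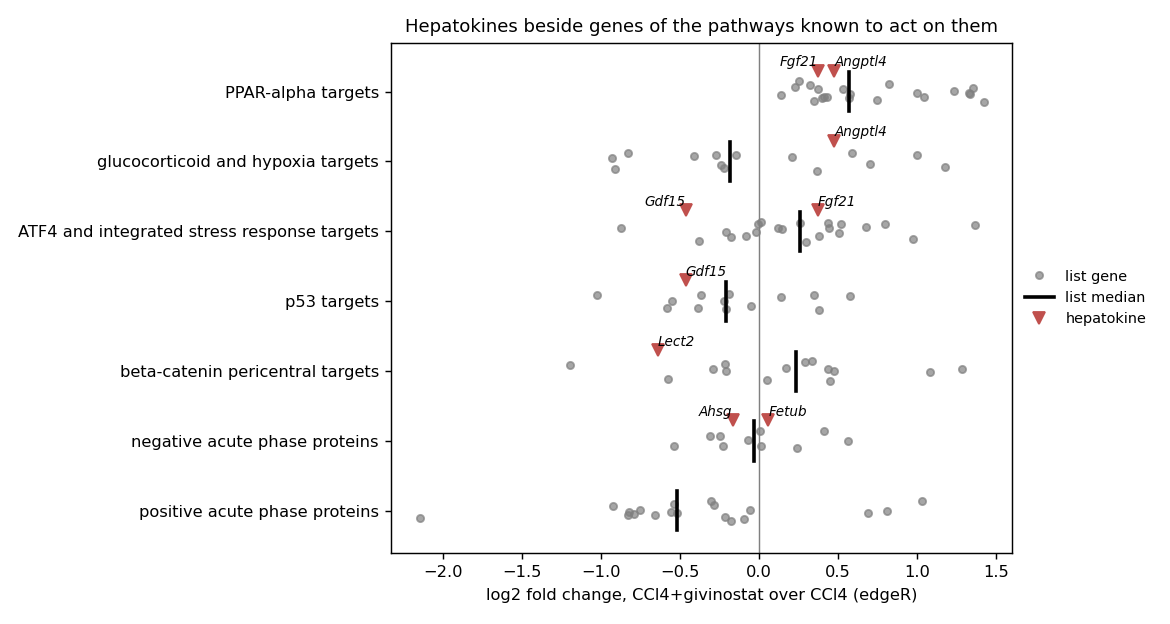
Log2 fold change, CCl4+givinostat over CCl4 (edgeR), of the genes of 7 lists (grey points, spread vertically for legibility). The lists were chosen with earlier results of these data known. Black lines are list medians, and red triangles are the hepatokines known to respond to each pathway. The PPARα targets lie above 0, Angptl4 and Fgf21 lie below their median of 0.57, and Lect2 lies on the other side of 0 from the beta-catenin list's median of 0.23.

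The fetuins overlapped between the groups. Ahsg and Fetub are neighbours on chromosome 16, at 22891277 to 22899449 and 22918334 to 22939778, both on the plus strand. Ahsg stood at 9703 and 8576 CPM in CCl4+givinostat livers, against 8507, 12153 and 10093 CPM in CCl4 livers, and the groups overlapped. Its log2 fold change was -0.17 ± 0.20 (SE) with a 95% interval of -0.62 to 0.29, and the edgeR adjusted p was 0.939. Of its exonic bases 2.822% overlap the opposite-strand gene Gm30505. Fetub stood at 841.9 and 635.5 CPM in CCl4+givinostat livers, against 584.0, 840.6 and 702.0 CPM in CCl4 livers. Its log2 fold change was 0.06 ± 0.20 (SE) with a 95% interval of -0.40 to 0.52, the edgeR adjusted p was 0.986, and the sign turned without CCl4 replicate 1 (-0.06) or CCl4+givinostat replicate 1 (-0.16). In folds, the 95% intervals ran between 0.652 and 1.22 for Ahsg and between 0.756 and 1.44 for Fetub. The ratio of Ahsg to Fetub in CPM, also chosen after its values were seen, was 11.5 and 13.5 in CCl4+givinostat livers, against 14.6, 14.5 and 14.4 in CCl4 livers. That ratio was lower in both CCl4+givinostat livers, by 0.21 on the log2 scale (exact permutation p = 0.1, two-sided), and by 0.10 without CCl4+givinostat replicate 1.

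Of the neighbouring cystatin-related genes of the cluster, 3 of 3 tested lay above 0, none at an unadjusted p under 0.05 in edgeR. Without CCl4+givinostat replicate 1, 2 were higher and 1 lower, with a median log2 fold change of 0.02. Hrg, the gene of histidine-rich glycoprotein, stood at 871.1 and 797.8 CPM in CCl4+givinostat livers, against 777.4, 668.3 and 676.9 CPM in CCl4 livers, with a log2 fold change of 0.24 ± 0.15 (SE). Kng1 and Kng2, which encode kininogens and may share reads as close paralogs, had log2 fold changes of 0.11 ± 0.16 and 0.07 ± 0.15 (SE). Adipoq, an adipocyte marker listed with this cluster, had counts in CCl4+givinostat replicate 2 only, at 0.180 CPM.

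The fetuins are negative acute phase proteins, whose synthesis falls in inflammation. The other 10 such genes divided evenly, 5 higher and 5 lower, with a median log2 fold change of -0.03 (-0.13 without CCl4 replicate 1). Rbp4, the plasma retinol carrier, stood at 6143 and 5013 CPM in CCl4+givinostat livers, against 3721, 3736 and 3885 CPM in CCl4 livers, and Trf, the gene of transferrin, at 12672 and 11820 CPM in CCl4+givinostat livers, against 15126, 20429 and 17700 CPM in CCl4 livers. Apoa2, an apolipoprotein of high-density lipoprotein, had a log2 fold change of 0.41 ± 0.17 (SE). Positive acute phase genes were lower in 16 of 19 cases, with a median log2 fold change of -0.52 (-0.23 without CCl4 replicate 2 and -0.25 without CCl4+givinostat replicate 2), and 6 lower and 1 higher had an unadjusted p under 0.05. The fibrinogen chains Fga, Fgb and Fgg had log2 fold changes of -0.92 ± 0.18, -0.75 ± 0.18 and -0.79 ± 0.16 (SE), and Steap4, a metalloreductase, one of -0.82 ± 0.16 (SE). None of these genes passed the edgeR adjustment over all genes, and DESeq2 called 4 of the 19 lower, beside 0.581% of all tested genes.

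Other secreted liver factors gave no common direction: of 24 tested, 9 were higher and 15 lower, with a median log2 fold change of -0.07, and an unadjusted p under 0.05 was found for 1 higher and 3 lower (5 and 6 without CCl4 replicate 1, and 0 and 0 without CCl4+givinostat replicate 1). The higher one was Rbp4, also known as an adipokine. The lower ones were Angptl8, Enho, which encodes the peptide adropin, and Hamp, which encodes the iron hormone hepcidin. Enho stood at 17.1 and 13.2 CPM in CCl4+givinostat livers, against 13.5, 66.2 and 46.4 CPM in CCl4 livers, where CCl4 replicate 1 lay with the CCl4+givinostat livers. Hamp stood at 763.7 and 874.7 CPM in CCl4+givinostat livers, against 1051, 2172 and 1088 CPM in CCl4 livers.

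Of 20 receptors and partners of the hepatokines tested, 6 were higher and 14 lower, with a median log2 fold change of -0.11, and 1 higher and 1 lower had an unadjusted p under 0.05. That direction rested on single libraries: without CCl4 replicate 3, 10 were higher and 9 lower, and without CCl4+givinostat replicate 1, 10 were higher and 10 lower. Fgfr4, the main FGF receptor of hepatocytes, stood at 50.6 and 52.5 CPM in CCl4+givinostat livers, against 68.1, 70.4 and 68.3 CPM in CCl4 livers, which is -0.42 ± 0.14 (SE) on the log2 scale, with an adjusted p of 0.503 in edgeR. Klb, the co-receptor of FGF21, had a log2 fold change of 0.28 ± 0.21 (SE), and Fgfr3 one of -0.44 ± 0.22 (SE). Lipg, an endothelial lipase, stood at 18.0 and 17.2 CPM in CCl4+givinostat livers, against 11.4, 13.9 and 13.2 CPM in CCl4 livers. Gfral, the receptor of GDF15, named here after its values were seen, had no count in any library.

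Among 30 transcription factors and corepressors known to act on these genes, 13 were higher and 17 lower, with a median log2 fold change of -0.03. Without CCl4 replicate 1, 19 were higher and 11 lower, with a median of 0.07. Srebf1, the lipogenic factor, stood at 32.8 and 43.4 CPM in CCl4+givinostat livers, against 59.7, 57.7 and 55.5 CPM in CCl4 livers, which is -0.60 ± 0.17 (SE) on the log2 scale, with an adjusted p of 0.413 in edgeR. Nr1d1, a clock repressor, and Creb3l3, a fasting factor that acts on Fgf21, had log2 fold changes of 0.52 ± 0.21 and 0.40 ± 0.16 (SE). Hdac3, a deacetylase and corepressor subunit, had one of 0.11 ± 0.15 (SE). Those of the deacetylases Hdac1 and Hdac2 were -0.22 ± 0.15 and -0.25 ± 0.15 (SE), with edgeR unadjusted p of 0.177 and 0.137. For both of these genes the CCl4+givinostat livers lay below every CCl4 liver.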

How the data were processed

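Total RNA from flash-frozen liver was turned into sequencing libraries by an Illumina TruSeq kit for RNA, per the labels' protocols. The deposited tables hold 1 raw read count per gene symbol. Bowtie 0.12.2 and the builds mm8 and mm10 are named, with no role, per the submitters' processing notes. The counting tool, its use of strand and its handling of reads shared by paralogs: not given in the sources used here. Of 24834 entries, 26 were symbols turned into dates (0.144% to 0.169% of counts) and were left out of library sizes and tests.

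Groups follow the treatment label, and the design text gives the libraries as separate mice. Genes were filtered with filterByExpr, scaled by TMM and tested with edgeR 4.0.16 (R 4.3.3, quasi-likelihood, treatment as the only term, all 5 libraries, 3 residual degrees of freedom), with Benjamini-Hochberg adjustment over 13590 genes. DESeq2 1.42.0 was an alternative, beside RLE scaling, other filters, a replicate block and leaving out each library. The common biological coefficient of variation was 20.0%. Scripts were tested on simulated counts. No libraries agreed within sampling noise (chi-square per degree of freedom 25.8 to 80.6). Floors of 3 counts cover counting error only.

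The hepatokines and all gene lists were chosen with earlier results of these data known, and lists were described by counts and medians with no set test. Named genes are all 7 hepatokines, up to 4 genes of each list with the smallest edgeR p, every angiopoietin-like and fetuin-cluster gene (1 result is not reported here), regulators where a sentence turns on them, and the 3 nearest profiles of the 2 hepatokines with the smallest p. Positions and lengths come from the GENCODE M21 annotation. RefSeq promoters (GRCm38.p6) were found for 6 of the 7, in 8 windows, cut to the 250 bases before the start. The 11 motifs searched on both strands, with their share of 32851 windows, were TGATGNAA (3.452%), DR1, AGGNCA repeated on 1 strand with any 1 base between (0.3379%), CTTTGAA (4.456%), CTTTGAT (3.205%), the HNF1 motif GTTAAT, any 1 base, ATTAA (0.06088%), CAAAGTCCA (0.3835%), CACGTG (6.021%), TGACGTCA (1.546%), TGACGCAA (0.4383%), TATAAA (12.37%) and CCAAT (33.85%).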

Additional observations from a re-analysis of the deposited data

How the results depend on the processing

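Of 77 fold changes of the 7 hepatokines under 11 alternatives each, 74 had the same sign as with all libraries, 3 were reversed and 1 was called. Fgf21 was called without CCl4 replicate 1 (log2 fold change 0.78, edgeR adjusted p = 0.0405), and over the single libraries left out it ran between 0.16 and 0.78. Angptl6 reversed without CCl4+givinostat replicate 2 (0.079; range -0.28 to 0.079), and Fetub without CCl4 replicate 1 (-0.06) and CCl4+givinostat replicate 1 (-0.16; range -0.16 to 0.25). Over all genes, 1 was called higher and 0 lower. The counts of higher and lower genes were 68 and 77 with the replicate block, 23 and 15 with no low-count filter, 69 and 79 with DESeq2, and 2 and 1 at an adjusted p of 0.1. When every library of a group had to hold 10 counts, 0 genes were called higher. With single libraries left out the counts ran between 0 and 119 higher and between 0 and 116 lower, the largest without CCl4 replicate 1, and the cause was not tested. Where 1 CCl4+givinostat library remained, it was assumed to vary like the CCl4 libraries. Hepatokines at an unadjusted p under 0.05 numbered 1 higher and 1 lower. CCl4 replicate 3 has no same-numbered CCl4+givinostat library, so with the block it does not enter the fitted difference. That fit keeps 1 residual degree of freedom. With the block edgeR called 7 PPARα targets higher and 6 mesothelial markers lower, against 0 of either without it under the same filter. The macrophage markers were then 4 higher and 7 lower. The hepatokines at an unadjusted p under 0.05 were 0 higher and 2 lower with the block, beside 424 higher and 423 lower of 13590 genes tested. They numbered between 0 and 2 in each direction with single CCl4 libraries left out. The labels give the replicate numbers no meaning. Deviations of same-numbered libraries correlated at -0.148 and -0.0753. The deviations of the 2 CCl4+givinostat libraries mirror each other, so these values cannot decide whether the samples are paired. Each of the 7 hepatokines had at least 176 counts in every library.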
